A study of Drosophila melanogaster with 2 samples.

Results

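Translation factors are the proteins that work with the ribosome without being part of it. Of the 13945 protein-coding genes of the fly annotation on the chromosome arms that carry peaks, 54 have a symbol that begins with eIF, eEF or eRF. These are 44 initiation factor genes (eIF), 8 elongation factor genes (eEF) and 2 release factor genes (eRF), and they were chosen by symbol alone. The data are ChIP-seq of CG34367, a homeodomain protein, from Drosophila melanogaster at the pupal stage, with whole animals taken at 24 hours of age. A transgene in this line stably adds CG34367 fused at its C-terminus to GFP, and antibody to GFP recovered the chromatin. The series holds 1 group of 2 libraries, which the labels number as biological replicates 1 and 2, so all comparisons are between genes, between peaks or between the libraries. The labels used here give neither the promoter that drives the fusion nor the number of pupae in a library, and in whole animals the tissue that gives rise to a peak is unknown.

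Initiation factors bring the initiator tRNA, the small ribosomal subunit and the capped mRNA together and find the start codon. Elongation factors deliver the following tRNAs and move the ribosome along, and release factors end the protein at a stop codon. Many of these genes are active in all cells and, like the ribosomal protein genes, several carry a pyrimidine-rich (TCT) initiator at the transcription start site (TSS) in flies. Another element of widely active fly promoters is the DNA replication-related element (DRE), bound by the factor DREF, whereas homeodomains bind AT-rich cores such as TAATTA.

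Sequences at 5 summits, and at a TSS next to the summit of eEF2, are shown for genes with a joint promoter peak, because they differ in base composition and in the promoter sequences they hold. Each is taken from the RefSeq Release 6 assembly, which corresponds to build dm6, and reads 5′ to 3′ on the strand of the gene. Capitals mark matches to the sequences searched for. These are the DRE (TATCGATA) in eEF1gamma, eIF1 and eIF4A, a TCT initiator sequence (TCTTTC) in eEF2 and the homeodomain core (TAATTA) in eIF4EHP. The eRF3 window held none of them. In eEF2 the match lies just downstream of the TSS and does not span it. Windows cover 50 bp on either side of the summit, except where that would run further into an exon. For eEF1gamma (chr3R:29220119-29220186, + strand) the stretch ends 15 bases into the transcript, and for eEF2 (chr2L:21682102-21682131, − strand) it is 30 bases around a TSS that lies 24 bp downstream of the summit, so the summit itself is not shown. The others are eIF4A (chr2L:5981656-5981756, + strand), eIF1 (chr3L:3222961-3223061, + strand), eIF4EHP (chr3R:24109144-24109244, − strand) and eRF3 (chr2L:12434211-12434311, + strand).
eEF1gamma: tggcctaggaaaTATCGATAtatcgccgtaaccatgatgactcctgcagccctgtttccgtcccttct
eEF2: gtcgctgcagcgcctcgcTCTTTCctgtcg
eIF4A: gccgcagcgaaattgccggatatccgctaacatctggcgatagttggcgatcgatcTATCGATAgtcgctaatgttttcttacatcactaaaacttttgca
eIF1: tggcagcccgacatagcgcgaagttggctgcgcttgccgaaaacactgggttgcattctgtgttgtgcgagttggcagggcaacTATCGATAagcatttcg
eIF4EHP: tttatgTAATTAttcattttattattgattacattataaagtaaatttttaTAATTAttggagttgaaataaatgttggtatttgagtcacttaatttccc
eRF3: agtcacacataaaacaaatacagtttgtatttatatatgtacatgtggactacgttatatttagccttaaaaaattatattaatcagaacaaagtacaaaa

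A joint summit lay within 500 bp of a TSS, called the promoter here, at 15 of the 54 translation factor genes, which is 27.8% (95% exact binomial interval 16.5% to 41.6%). Over all protein-coding genes the share was 17.4% (2432 of 13945), a value inside that interval. The joint list holds 6270 peaks that passed the authors' threshold on the irreproducible discovery rate (IDR). Of these, 5993 overlapped a listed peak of both replicates, so a joint peak was not always listed in each library. At translation factor genes, joint signals and ranks equal those in the pooled list. Counting summits inside the gene as well gave 16 translation factor genes, or 29.6% (18.0% to 43.6%), against 22.8% of all genes. The intervals cover counting error only and treat genes as independent. A single TSS was annotated at 59.3% of translation factor genes and at 73.5% of all genes, and the part of the number of TSS in these shares was not tested.

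Of the 8 elongation factor genes 4 had a joint promoter summit (50%, interval 15.7% to 84.3%), as did 10 of the 44 initiation factor genes (22.7%, 11.5% to 37.8%) and 1 of the 2 release factor genes. The elongation and initiation intervals overlap widely. Within the initiation factors, the factors of start codon selection and subunit joining (eIF1, eIF1A, eIF5, eIF5B and eIF6) had 3 of 5 (14.7% to 94.7%). The cap-binding and helicase group of eIF4 had 4 of 13 (30.8%, 9.09% to 61.4%), and the subunits of eIF2, which carries the initiator tRNA, had 1 of 3 (0.84% to 90.6%). Of the 16 genes for subunits of eIF3, the scaffold on the small subunit, only eIF3h had one (6.25%, 0.158% to 30.2%). None of the 5 genes for eIF2B, which recharges eIF2 with GTP, had one, which allows a share of up to 52.2%. The intervals of these groups all overlap, and that of eIF3 includes the 17.4% of all genes.

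Each library was also taken singly, by its 6270 strongest peaks. In this way 13 translation factor genes (24.1%) had a promoter summit in replicate 1, where 18.3% of all genes did. In replicate 2 there were 16 (29.6%), where 17.1% of all genes had one. The share averaged 26.9% ± 3.93 at translation factor genes and 17.7% ± 0.911 at all other genes (SD, n = 2 libraries). Both libraries read the same 54 genes, so this SD holds no counting error over genes. That error is given by the exact binomial intervals, 13.5% to 37.6% in replicate 1, which includes the share of all genes, and 18.0% to 43.6% in replicate 2. With summits inside the gene added, 13 translation factor genes (24.1%) were found in replicate 1, where 23.6% of all genes were, and 17 (31.5%) in replicate 2, where 22.6% were. The mean share by that rule was 27.8% ± 5.24 at translation factor genes and 23.1% ± 0.733 at all other genes (SD, n = 2 libraries), a difference smaller than the spread between the libraries. Both libraries named 11 translation factor genes and at least 1 library named 18. The elongation factors had 3 genes in each library, of which 2 (eEF1alpha1 and eEF1gamma) were common to both. Among eIF3 subunits, 1 gene was found in replicate 1 (6.25%) and 3 in replicate 2 (18.8%).

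**Figure D1:**
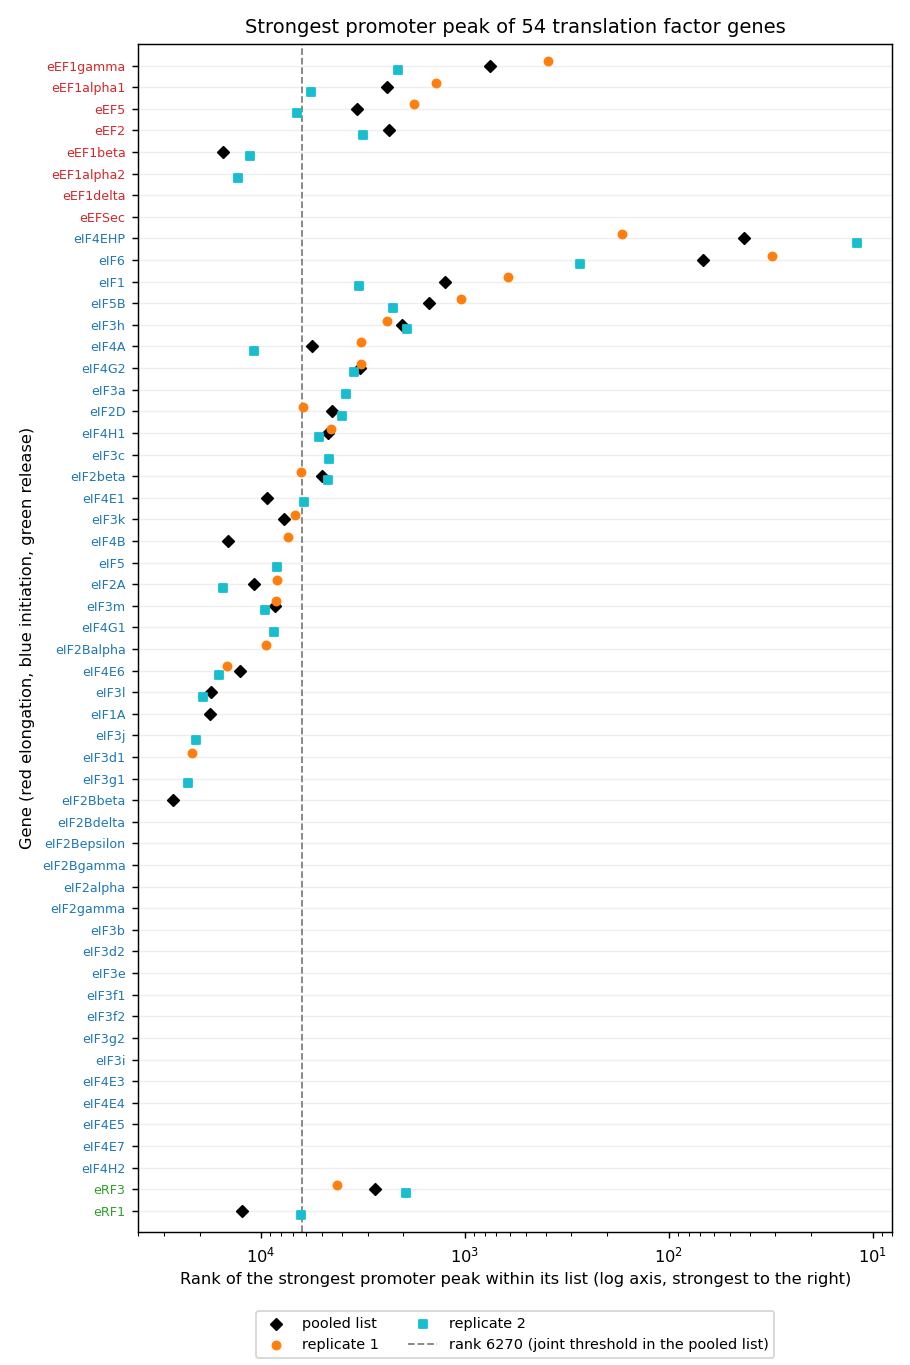
Rank of the strongest promoter peak of each of the 54 translation factor genes in the pooled list and in each replicate's list of 30000 peaks, on a log axis with the strongest peaks to the right. The dashed line marks rank 6270, below which a pooled peak is not in the joint list. Elongation factor genes (red names) with a joint peak rank higher in replicate 1 where both libraries have a peak, and 19 genes have no point.

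The elongation factor with the highest signal was eEF1gamma (FBgn0029176), a subunit of the complex that recharges eEF1alpha with GTP. Its joint peak (chr3R:29220010-29220277) had a signal of 636 and rank 755 of the joint list, with the summit 3 bp upstream of a TSS. The signal, the authors' score for a peak, was 456 in replicate 1 and 172 in replicate 2, with ranks 391 and 2128 in those lists. Both libraries placed the summit within 6 bp of the TSS.

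eEF1alpha1 (FBgn0284245), which brings aminoacyl-tRNAs to the ribosome, had a joint signal of 305 with a summit 50 bp upstream of a TSS and inside an intron of a longer transcript. The signal was 223 in replicate 1 (rank 1382) and 78.9 in replicate 2 (rank 5710). eEF5, the fly eIF5A, which helps ribosomes past difficult stretches, had a joint signal of 235, with 188 in replicate 1 (rank 1782) and 69.0 in replicate 2 (rank 6655). Its joint summit lay 2 bp upstream of a TSS. In these genes the peak was thus much further down the list of replicate 2 than that of replicate 1.

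eEF2, the translocase, had a joint signal of 311 and a summit 24 bp upstream of its nearest TSS, within the 5′ UTR exon of a longer transcript. No peak of replicate 1 overlapped it. Replicate 2 had a signal of 130 (rank 3149) in a peak whose summit lay 118 bp downstream of the TSS. So the joint call at eEF2 was matched by a listed peak in 1 library only.

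The other 4 elongation factor genes had no joint peak. eEF1beta, an exchange subunit, had a pooled signal of 57.8 (rank 15293) and a replicate 2 signal of 41.9 (rank 11316). eEF1alpha2, the paralog of eEF1alpha1, had a promoter signal of 36.6 in replicate 2 (rank 12953), at a summit 4 bp from its TSS. A stronger peak lay inside the gene, 1830 bp downstream of a TSS, with a pooled signal of 133 (rank 6479). That rank is just below the joint threshold. In replicate 2 the peak inside the gene had a signal of 59.2 (rank 7823), and replicate 1 had none. eEF1delta, another exchange subunit, and eEFSec, the factor for selenocysteine tRNA, had no peak in any list.

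eIF4EHP (FBgn0053100), a cap-binding relative of eIF4E that represses translation of bound mRNAs, had the highest joint signal of the 54 genes. The peak (chr3R:24108992-24109391) had a signal of 1957 and rank 43 of the joint list. The signal was 650 in replicate 1 (rank 170) and 1305 in replicate 2 (rank 12). The summit lay 234 bp upstream of the eIF4EHP TSS and closer, at 142 bp, to the TSS of its divergent neighbour CG18428. It was the only translation factor promoter summit with TAATTA, which stood there as 2 copies.

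eIF6, which keeps the large subunit from joining too early, came next with a joint signal of 1729 (rank 68) at a summit 98 bp upstream of the TSS. In contrast to eIF4EHP it was stronger in replicate 1, with a signal of 1212 (rank 31), than in replicate 2, with 520 (rank 272). The summit lies within the gene ytr on the same strand and 69 bp from the TSS of a non-coding RNA.

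Of the other factors for start selection and joining, eIF1, which guards the choice of start codon, had a joint signal of 480, with 360 in replicate 1 (rank 612) and 125 in replicate 2 (rank 3301). Its summit lay 330 bp upstream of eIF1 and 51 bp from the TSS of the divergent ribosomal protein gene RpL28, so the peak sits nearer to RpL28. eIF5B, the GTPase of subunit joining, had a joint signal of 426, with 264 in replicate 1 (rank 1050) and 166 in replicate 2 (rank 2249), at a summit 152 bp upstream of a TSS. eIF1A had no joint promoter summit but a peak in an intron 906 bp downstream of a TSS, with a joint signal of 165, 54.8 in replicate 1 and 87.6 in replicate 2. eIF5, the GTPase activator of eIF2, had a promoter signal of 55.9 in replicate 2 alone (rank 8328) and a pooled peak inside the gene (46.1, rank 19305).

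In the eIF4 group, 4 genes had joint promoter peaks. eIF4G2, a paralog of the scaffold eIF4G1, had a joint signal of 241, with 119 in both libraries, at a summit 186 bp upstream of a TSS and at the same distance from a TSS of the overlapping gene CG33111. eIF4H1, a helper of the helicase, had a joint signal of 176, with 89.4 in replicate 1 and 85.8 in replicate 2, at a summit 153 bp upstream of a TSS. eIF4A, the RNA helicase itself, had the lowest joint promoter signal of the 15 genes, 152 (rank 5587), with 119 in replicate 1 (rank 3229) and 43.8 in replicate 2 (rank 10789). The peaks at eIF4G2 and eIF4H1 were thus nearly even between the libraries, whereas eIF4A was high in replicate 1.

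Joint signals of the remaining initiation factors ran from 167 to 347. eIF3h had a joint signal of 347, with 152 in replicate 1 and 186 in replicate 2, at the only promoter summit downstream of a TSS (303 bp, in an intron). eIF2D, which in mammals can deliver initiator tRNA in place of eIF2, had 183, with 68.1 in replicate 1 and 107 in replicate 2, at a summit 112 bp upstream of the TSS. eIF2beta, a subunit of eIF2, had 167, with 66.4 in replicate 1 and 93.8 in replicate 2, at a summit 246 bp upstream. All 3 were somewhat higher in replicate 2. The release factor eRF3, the GTPase partner of eRF1, had a joint signal of 274, with 94.3 in replicate 1 (rank 4250) and 184 in replicate 2 (rank 1943). Its summit lay 191 bp upstream of eRF3 and inside the gene SC35, which overlaps its start on the opposite strand, 223 bp from an SC35 TSS. eRF1, which reads the stop codon, had no joint peak, a pooled signal of 70.8 (rank 12443) and a signal of 72.1 in replicate 2 (rank 6331), with no promoter peak in replicate 1.

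**Figure D2:**
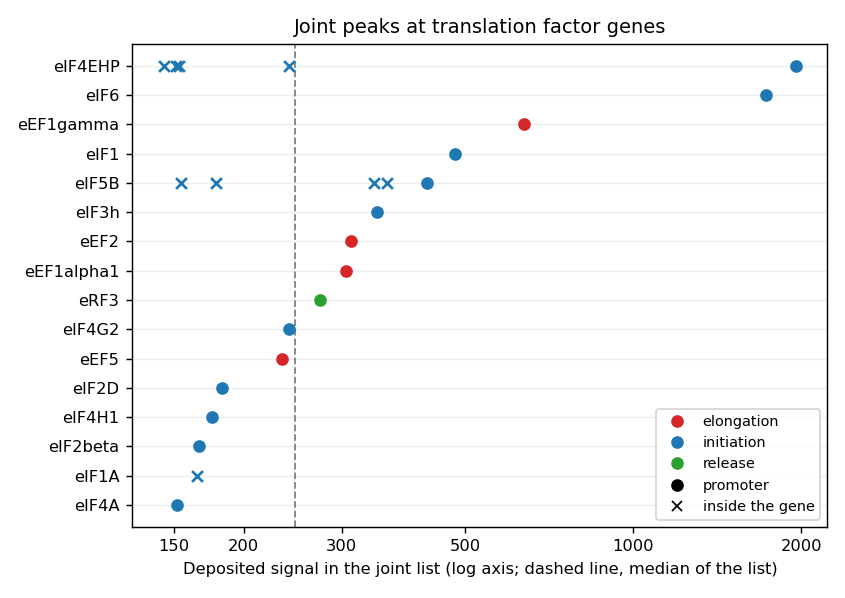
Deposited signal of the 24 joint peaks at 16 translation factor genes on a log axis, with promoter peaks as circles and peaks inside the gene as crosses, coloured by class. The dashed line is the median of all joint peaks (248). eIF4EHP and eIF6 stand above 1700 and every other peak is at or below 636.

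The median signal of the 15 promoter peaks was 305, against 273 over all genes with a joint promoter summit. Of the 24 distinct joint peaks at translation factor genes, 23 overlapped a peak of replicate 1 and 24 a peak of replicate 2. 9 peaks lay inside a gene away from the promoter, in introns of 3 genes that are long for this set. These are eIF1A (8341 bp), eIF5B (32320 bp) and eIF4EHP (45884 bp), against a median of 1968 bp over the 54 genes and 2166 bp over all genes. eIF5B held 4 such peaks, with joint signals of 155 to 361, and eIF4EHP held 4, with 144 to 241. A pair of the eIF4EHP peaks lay 37 bp and 656 bp from the TSS of Syx1A, a syntaxin gene nested within eIF4EHP. For a pair of the eIF5B peaks the nearest TSS was that of the neighbour sty.

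In the joint list, all 4 elongation factor summits lay within 50 bp of a TSS of their gene, with a median distance of 13.5 bp. None of the 10 initiation factor summits did, and their distances ran from 58 to 330 bp with a median of 169.5 bp. For these same genes, the single libraries held an exception to this split on each side. The replicate 2 summit of eEF2 lay 118 bp from a TSS and that of eIF4A lay 3 bp from one. Genes without a joint promoter summit broke the split more often. Their strongest summits lay within 50 bp at eIF3a, eIF3c, eIF3m and eIF5 in replicate 2, and at eIF2A, eIF3d1 and eIF3k in replicate 1. Those of the other such initiation factors lay further away. Of such elongation factors, eEF1alpha2 lay within 50 bp and eEF1beta further away, both in replicate 2. The comparison in the joint list rests on 4 genes against 10 and was not tested. Over all genes with a joint promoter summit, 13.2% (321 of 2432) lay within 50 bp and the median was 160 bp, close to the median of the initiation factors. The 69 ribosomal protein genes with a joint promoter summit had a median of 20 bp, with 56 (81.2%) within 50 bp. Summits lay upstream at 14 of the 15 translation factor genes (93.3%), against 82.3% of all genes. A TSS of another protein-coding gene lay within 500 bp of the summit at 5 of the 15 (33.3%), all of them initiation or release factors, against 49.7% of all genes.

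**Figure D3:**
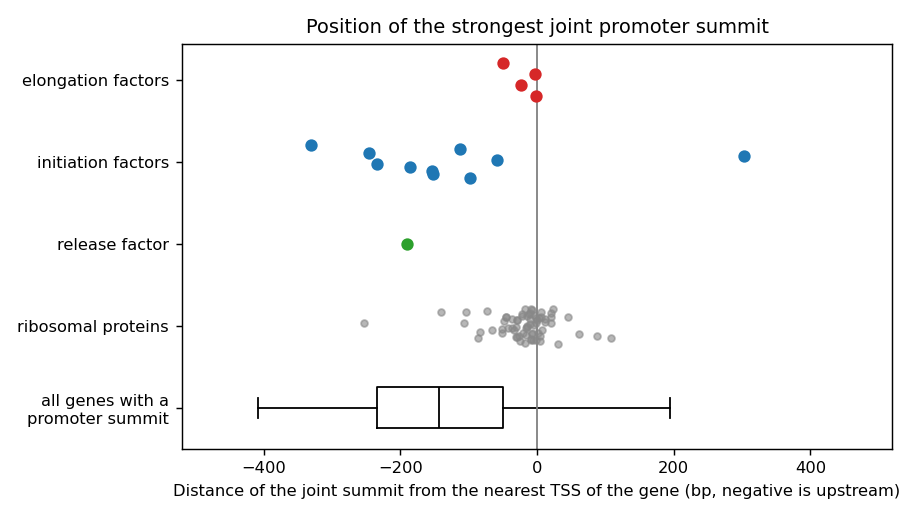
Distance of the strongest joint promoter summit from the nearest TSS of the gene, in bp with negative values upstream, one point per gene and vertical offsets only to separate points. The box for all genes spans the quartiles with the median as a line, and its whiskers reach the 5th and 95th percentiles. Elongation factors lie within 50 bp of the TSS, as most ribosomal protein genes do, and 9 of 10 initiation factors lie 58 to 330 bp upstream.

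The libraries were compared at 14 of the 15 promoter peaks by the log2 ratio of replicate 2 to replicate 1 signal, centred on the median over the 5993 joint peaks found in both lists. The median ratio of the 14 was -0.41, with values from -1.57 at eIF1 to 0.96 at eIF4EHP, against -0.10 over all genes (2210 with a ratio). It was negative, meaning relatively stronger in replicate 1, at 9 of 14 (64.3%), against 55.3% of all genes. The elongation factors eEF1alpha1 (-1.54), eEF5 (-1.49) and eEF1gamma (-1.45) were all strongly negative. eIF1 and eIF4A (-1.49) were as low and eIF6 (-1.27) came next, whereas eRF3 (0.92), eIF2D (0.60), eIF2beta (0.45) and eIF3h (0.25) were positive. eIF5B (-0.72), eIF4H1 (-0.10) and eIF4G2 (-0.04) lay between. The ribosomal protein genes, which include RpL28 with the same peak as eIF1, had a median of -1.09, with 62 of 65 negative.

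The base composition at the summits moved with this ratio. GC content within 50 bp of the summit had a median of 48.5% at translation factor genes, against 31.7% over all genes with a joint promoter summit. It was 51.5% at elongation factors and 43.6% at initiation factors, and 46.5% at ribosomal protein genes. The lowest values, 18.8% at eIF4EHP, 23.8% at eRF3 and 25.7% at eIF2D, belonged to peaks that were relatively stronger in replicate 2. The highest, 59.4% at eIF4H1, belonged to a peak that was nearly even. Across the 14 peaks the Spearman correlation of GC content with the ratio was -0.74 (Pearson -0.71), and across 1667 distinct promoter summits it was -0.32. The peaks share the same pair of libraries, so these are descriptions, and the part of base composition in the library difference was not tested.

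**Figure D4:**
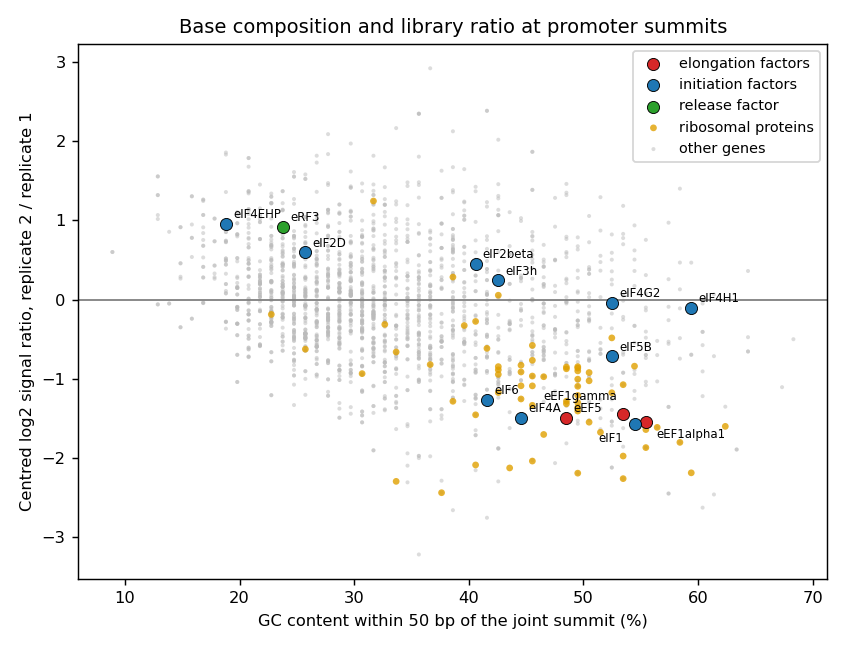
GC content within 50 bp of the joint promoter summit (%) against the centred log2 ratio of replicate 2 to replicate 1 signal, one point per gene. Translation factor genes are named, ribosomal protein genes are in yellow and other genes in grey. The 3 elongation factors lie among the ribosomal protein genes at the lower right, and eIF4EHP, eRF3 and eIF2D at the upper left.

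Matches to 6 sequences were counted on both strands within 50 bp of the promoter summits. The DRE (TATCGATA) stood at 3 of the 15 translation factor summits (20%), those of eEF1gamma, eIF4A and eIF1, against 1.93% of all genes with a joint promoter summit (47 of 2432) and 17.4% of the ribosomal protein genes with one. The eIF1 summit lies nearer to RpL28 and counts in both sets. From 250 bp upstream to 50 bp downstream of its own TSS, eIF1 held no DRE. The homeodomain core TAATTA stood at 1 of 15 (6.67%), against 10.3%, and the variant TAATTG at 1 of 15, that of eIF2beta, against 9.58%. GAGAGAG stood at 1 of 15, that of eIF4G2, against 1.85%. Neither the M1BP sequence GGTCACACT nor the E-box CACGTG stood at any of the 15, against 0.781% and 0.699% of all genes. A match describes these letters only.

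In the promoters themselves, taken from 250 bp upstream to 50 bp downstream of a TSS whether or not a peak was present, the DRE occurred at 16 of the 54 translation factor genes (29.6%), against 10.2% of all genes and 30.1% of the 93 ribosomal protein genes. TAATTA occurred at 33.3%, against 24.3% of all genes. A TCT initiator sequence (CTTT with a C or T on each side, on the strand of the gene, anywhere within 10 bp of a TSS) occurred at 7 of 54 (13.0%), against 3.03% of all genes and 67.7% of the ribosomal protein genes. Such a match need not span the TSS, and it could lie at any TSS of a gene. A single TSS was annotated at 59.3% of translation factor genes and 73.5% of all genes. The part of the number of TSS in these sequence shares was not tested. The 7 were eEF1delta, eEF2, eEF5, eIF3f1, eIF3i, eIF3m and eIF4A, of which eEF2, eEF5 and eIF4A had a joint promoter summit. The DRE and the TCT initiator occurred with and without a joint peak, since eEF1delta holds both and had no peak in any list.

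In the full lists of 30000 peaks, 26 translation factor genes (48.1%) had a pooled promoter summit, against 41.4% of all genes. The full list of replicate 1 had 21 of the 54 genes, against 5681 of all 13945 genes, so the translation factor share was slightly lower there. In replicate 2 it was higher, with 29 of the 54, against 5976 of the 13945. Both libraries had such a summit at 17 translation factor genes. Of the 17, 3 had no joint peak. They were eIF3m, a subunit of eIF3 with 51.7 in replicate 1 and 49.2 in replicate 2, eIF2A with 52.2 and 30.7, and eIF4E6, a paralog of eIF4E1, with 32.8 and 29.5. These are weak peaks, with pooled ranks from 8576 to 12653. The first translation factor promoters below the joint threshold were those of eIF3k (pooled signal 112, rank 7726), eIF3m (102, rank 8576) and eIF4E1 (93.9, rank 9337), and the last above it was eIF4A (152, rank 5587).

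At each length of the pooled list tried, the share of translation factor genes with a promoter summit lay above that of all genes. The lengths are nested cuts of 1 ranked list, so they do not repeat the comparison independently. Among the 1000 strongest pooled peaks 5.56% of translation factor genes (3 genes) had a promoter summit, against 3.60% of all genes. Among the 4000 strongest the shares were 20.4% and 12.1%, and among the 15000 strongest 40.7% and 32.3%. The elongation factors stood at 50% (4 of 8 genes) from the 4000 to the 15000 strongest peaks.

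**Figure D5:**
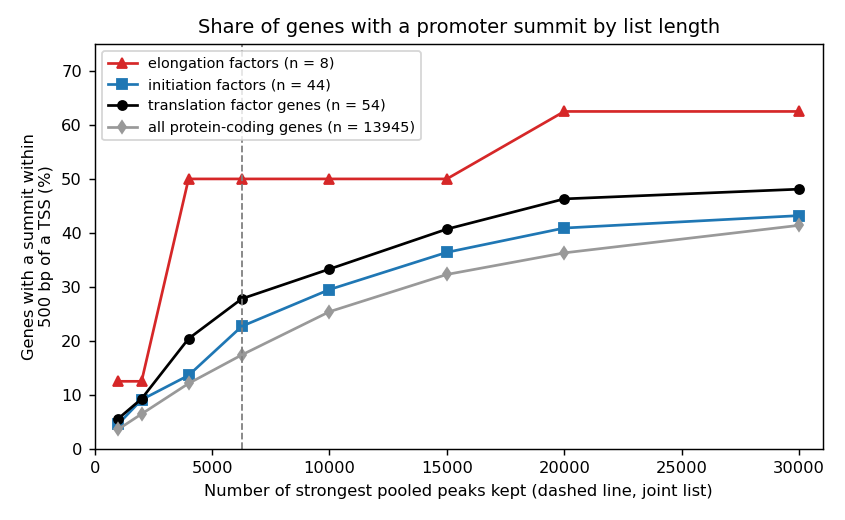
Percentage of genes with a promoter summit as the number of strongest pooled peaks kept grows to 30000, by class, with the joint list at the dashed line. Elongation factors lie above initiation factors at each length shown, and all protein-coding genes lie lowest. The lengths are nested, and at 1000 and 2000 peaks the elongation share is 1 gene.

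Several genes had a promoter peak in 1 library only, here without a filter on the q-value. eIF3a had a signal of 110 (rank 3840) with the summit 13 bp downstream of the TSS, and eIF3c had 94.0 (rank 4655) with the summit 6 bp upstream. Neither overlapped a peak of replicate 1 or of the pool, although both rank within the 6270 strongest of replicate 2. eIF4G1, the main scaffold gene, had a weaker peak in replicate 2 only (rank 8632). eIF4E1, the main cap-binding protein, had 74.5 in replicate 2 (rank 6129) and no promoter peak in replicate 1. In the other direction, eIF3k had 62.6 (rank 6801), eIF4B 58.0 (rank 7404) and eIF2Balpha 46.6 (rank 9481) in replicate 1 only. The promoter peaks of eIF3l, eIF3j, eIF3g1 and eIF3d1 were weaker still, at ranks between 17644 and 22887 of the lists that held them. eIF2Bbeta had a promoter peak in the pooled list alone (rank 27080).

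In all, 19 of the 54 genes had no peak in any list, neither at the promoter nor inside the gene. The same count over all genes was not made, so 19 is not shown to be high or low. In the full pooled list, 53.7% of translation factor genes and 47.3% of all genes had a summit at the promoter or inside. The 19 include eIF2alpha and eIF2gamma, the eIF2B genes eIF2Bdelta, eIF2Bepsilon and eIF2Bgamma, 7 of the 16 eIF3 genes (eIF3b, eIF3e, eIF3f1 and eIF3i among them) and 5 of the 13 eIF4 genes. Copies that are paralogs of a main gene made up 8 of the 19 (eIF3d2, eIF3f2, eIF3g2, eIF4E3, eIF4E4, eIF4E5, eIF4E7 and eIF4H2). So 8 of the 11 paralog copies had no peak in any list, against 1 of their 7 main copies (eIF3f1), a contrast that was not tested. Of all 11 paralog copies, 1 (eIF4G2) had a joint promoter summit, against 2 of their 7 main copies (eEF1alpha1 and eIF4H1), so both kinds were mostly without one. A missing peak says only that none was listed, at a read depth that is unknown.

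Other genes of translation were read from lists for comparison. The cytoplasmic ribosomal protein genes had a joint promoter summit at 69 of 93 (74.2%). The aminoacyl-tRNA synthetases, which charge the tRNAs, had 7 of 35 (20%), and the mitochondrial translation factors had 1 of 9, mIF2 with a signal of 322. Among 13 regulators and partners of translation factors, 4 had one. They were pAbp, the poly(A)-binding protein, with a signal of 601, the ribosome rescue factors pelo (212) and HBS1 (156), and the eIF4E kinase gene Lk6, which held the strongest peak of these lists, with 3154 inside the gene. The eIF4E-binding repressor Thor and the eIF2 kinases Gcn2 and PEK had none. The share at translation factor genes, 27.8%, lay below the interval of the ribosomal protein genes (64.1% to 82.7%). It lay inside those of the synthetases (8.44% to 36.9%), the mitochondrial factors (0.281% to 48.2%) and the regulators and partners (9.09% to 61.4%). No order among these is thus shown. Over all protein-coding genes the share was 17.4%.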

How the data were processed

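The narrowPeak files give 4 lists on build dm6 per the labels. These are replicate 1, replicate 2, their pool and a joint list thresholded by the irreproducible discovery rate (IDR). The signal is a deposited score per peak of unstated scaling, so it was compared only within a list, or between libraries as a centred log2 ratio. The authors' −log10 q-values are capped and served only as a filter at a q-value of 0.05. The sources used here give neither the peak caller nor the read depth, and the error of a peak's signal is thus unknown. At 55.2% of joint peaks the width is the same 380 bp, so those summits are the middle of a fixed window.

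Genes and TSS came from Ensembl release 115 and sequence from the RefSeq Release 6 assembly, in which 0 peaks ran past the end of an arm. All coordinates are 1-based. Summits were assigned to every gene with a TSS within 500 bp or a body around the summit, so a summit can count for several genes, and an overlap meant at least 1 bp. The strongest overlapping peak gave a library's signal. With 1 group, no test was run. Shares have 95% exact binomial (Clopper-Pearson) intervals. The text names every member with a joint summit, every elongation and release factor, and members with a promoter peak in both replicate lists. Genes named for other reasons were chosen after their values were seen. The members, gene lists and sequences were chosen with earlier results of these data known. All symbols of the other gene lists were matched (0 unmatched). The assignment of summits was tested on simulated data. Python 3.11.15, numpy 2.4.6, scipy 1.17.1, pandas 2.3.3 and matplotlib 3.10.9 were used. Alternatives varied the window, the list, the library, the assignment and the overlap.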

Additional observations from a re-analysis of the deposited data

How the results depend on the processing

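The length of the peak list set most of the counts. In the stronger 3135 joint peaks, 9 translation factor genes had a promoter summit, of which 5 were initiation factor genes, and 9 had one at the promoter or inside the gene. In the full pooled list the counts were 26 at the promoter, with 19 initiation and 2 release factor genes, and 29 at the promoter or inside, against 15, 10, 1 and 16 in the joint list. The share of all genes moved with them, from 9.8% in the stronger 3135 peaks to 41.4% in the full pooled list. The other alternatives kept each count of genes within 1.5 times that of the joint list. A window of 250 bp gave 13 promoter genes (without eIF1 and eIF3h) and one of 1000 bp gave 18. Giving each summit only to the nearest TSS also gave 13 (without eIF1 and eIF4EHP), and asking for an overlapping peak at a q-value of 0.05 in both libraries gave 14 (without eEF2). Without 1 library, the count ran from 13 to 16, and the median distance of the summit from the TSS ran from 150 to 159 bp, against 152 bp. The median centred ratio was -0.34 when centred on promoter peaks alone. No paired analysis was possible because there is 1 group.

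With 2 libraries, no control list and no read depth, the spread between libraries rests on 1 difference per gene. The classes are small, so intervals on their shares are wide. The elongation factor counts of 3 to 5 over the alternatives rest on 8 genes.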
